A study of Homo sapiens with 4 samples.

Results

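The 10 genes described here are the FOS genes (FOS, FOSB, FOSL1 and FOSL2), the JUN genes (JUN, JUNB and JUND), EGR1, IER3 and MYC, out of 19140 genes measured in Huh7 cells. They were found by symbol in the annotation of the array, and all 10 were present, with 94 probe sets between them. The grouping itself was chosen by a reading of earlier results of the same comparison, in which IER3 had a positive and MYC a negative difference, so the values of the members are a description and no test of them is offered. Huh7 is an established human hepatocellular carcinoma line. The siNF90 group was Huh7 cells treated with a small interfering RNA against NF90, one of the proteins that bind double-stranded RNA, and the siNTC group was Huh7 cells treated with the control siRNA. Each group had 2 arrays. The labels give no dose or time of treatment and do not say whether the arrays came from separate cultures, so the spread between them may be technical. The depletion of NF90 was not analysed here.

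Immediate early genes are transcribed within minutes of a growth factor, cytokine or stress signal, without new protein synthesis. Many are switched on by MAP kinases acting on serum response factor and its ternary complex partners at CArG boxes. FOS and JUN proteins pair through leucine zippers to form AP-1, a transcription factor that binds the motif TGANTCA. EGR1 is a zinc finger transcription factor, IER3 is a small protein linked to survival and ERK signalling, and MYC is a helix-loop-helix factor that pairs with MAX and drives ribosome production and growth. In liver, JUN and MYC are known for their part in regeneration and in hepatocellular carcinoma.

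Within this group of genes, IER3 was 2.32-fold higher, EGR1 1.64-fold higher and MYC 1.50-fold lower in siNF90 than in siNTC cells, and in each of the 3 the arrays of the groups did not overlap. JUN was 1.16-fold higher without overlap, and the other 6 AP-1 genes had overlapping groups. Of the 10 members 3 were higher without overlap, where 19.2% of all genes were, and 1 was lower without overlap, where 22% were. Without the second siNTC array 7 members were higher without overlap, and 7 were lower without the first siNTC array and 3 without the first siNF90 array. A group of 1 array overlaps less easily, and the shares over all genes were not counted for these settings. These counts say little about the members. IER3 was at least 2-fold higher without overlap, as were 1.07% of all genes, and no member was at least 2-fold lower without overlap, as were 1.31% of all genes. The direction of IER3 was known when the group was chosen, so its place beside this share is a description only. In limma, 0 of 19140 genes (0%) passed an adjusted p of 0.05, while 1683 genes (8.79%) had an unadjusted p under 0.05. With limma's trend and robust prior, 48 genes (0.251%) passed.

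**Figure D1:**
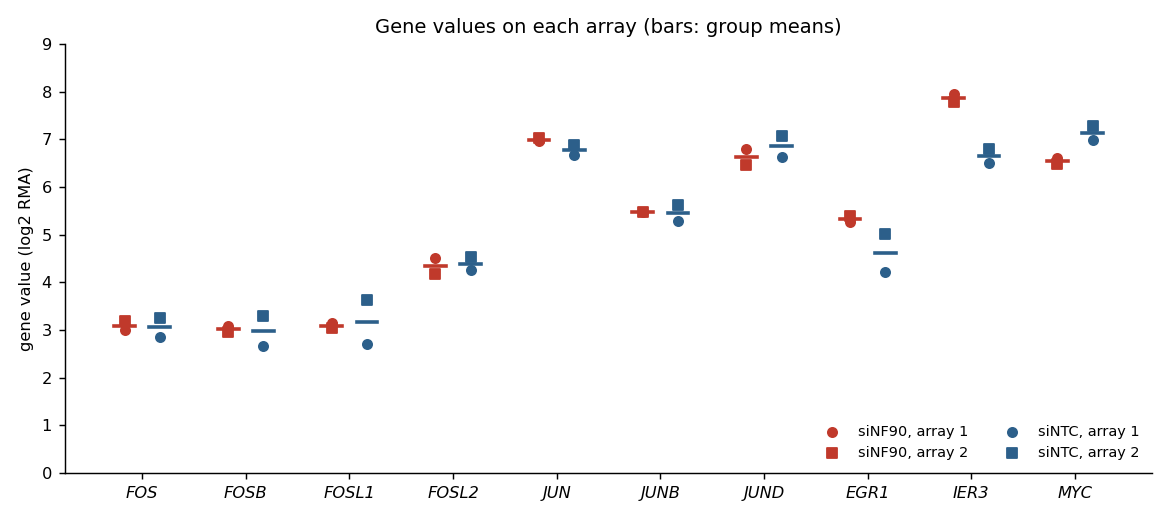
Gene values (log2 RMA, vertical axis) of the 10 genes on each array, siNF90 arrays to the left of siNTC arrays, with circles for array 1, squares for array 2 and bars for group means. The groups separate in IER3, EGR1, MYC and JUN, and in each of the 10 genes the square of siNTC lies above its circle.

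The values are on the log2 scale of the authors' RMA, and the value of a gene is the mean of its probe sets at or above 2.13, the 40th percentile of all probe set means. A difference is siNF90 minus siNTC, its standard error (SE) comes from the limma fit over all genes, and its 95% interval is not adjusted for the number of genes. The filter kept 87 of the 94 probe sets of the members, at least 2 in each gene. The kept probe set nearest to the limit belonged to FOSL1, with a mean of 2.16, and the nearest one left out belonged to FOS, with 1.71. The medians of the 4 arrays lay between 2.72 and 2.79, and the arrays correlated at between 0.936 and 0.958 across genes (genes are no independent replicates). The highest correlation, 0.958, was between the first siNF90 and the first siNTC array. The siNTC arrays correlated at 0.957 with each other and the siNF90 arrays at 0.950, so the arrays did not group by treatment. The second siNF90 array was the farthest from the siNTC arrays. The cells carried a hepatocyte profile: 13 of 14 hepatocyte markers were measured, at a median of 9.88 in siNF90 and 9.67 in siNTC cells. The median of their differences was -0.17, with 8 of 13 negative, so the 2 group medians do not show a rise. Of these markers 3 were higher and 7 lower in siNF90 without overlap (19.2% and 22% over all genes), albumin (ALB) among the lower ones, with 10.7 in siNF90 and 11.1 in siNTC cells. The 8 measured markers of leukocytes, fibroblasts and endothelium had medians of 3.27 and 3.15 in the same order. Of them 7 had positive differences, and 3 were higher and 1 lower without overlap (the same shares over all genes). Their part in the results was not tested.

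One feature of the arrays touched every member. The second siNTC array was above the first in 10 of the 10 genes, where this held for 46.5% of all genes. The gap between the siNTC arrays ranged from 0.21 in JUN to 0.93 in FOSL1. It was larger than the difference between siNF90 and siNTC in 7 of the 10 genes, the exceptions being IER3, MYC and, by little, JUN. The share over all genes was not counted, so that number is not shown to be particular to the members. Among 27 other immediate early genes, 21 were also higher on the second siNTC array. The siNF90 arrays did not share this pattern, with the second array above the first in 3 of the 10 members and in 39% of all genes.

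JUN, the main transactivating partner in AP-1, had values of 6.96 and 7.03 on the siNF90 arrays, against 6.67 and 6.88 on the siNTC arrays. The siNF90 arrays lay above, but by little: the lower siNF90 and the higher siNTC array were 0.080 apart. The difference was 0.22 (SE 0.18, 95% interval from -0.26 to 0.70), and 3 of 3 probe sets were higher, 1 of them without overlap. JUNB, which often opposes JUN in the control of growth, had 5.48 and 5.47 in siNF90, against 5.29 and 5.62 in siNTC cells. The siNF90 arrays sat between the siNTC arrays, and the difference was 0.022 (SE 0.20). JUND, a JUN protein usually present in resting cells, had 6.80 and 6.46 in siNF90, against 6.64 and 7.07 in siNTC cells. The groups overlapped, with a difference of -0.22 (SE 0.25, interval from -0.87 to 0.42). Both JUND probe sets had negative differences, 1 of them without overlap. Over all kept probe sets of the array, 18% were higher and 20.3% lower in siNF90 without overlap. The interval of JUNB ran from -0.50 to 0.55. Each of the 3 intervals held values of both signs, so 2 arrays per group did not settle the direction in these genes.

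FOS, FOSB and FOSL1 were dim. FOS, the classical partner of JUN, had 2.99 and 3.19 in siNF90, against 2.86 and 3.26 in siNTC cells, just above the array medians. The siNF90 arrays lay between the siNTC arrays, and 4 of its 12 probe sets were left out as dim. FOSB, which can stand in for FOS in AP-1, had 3.08 and 2.95 in siNF90, against 2.65 and 3.29 in siNTC cells. In FOSL1 (the protein FRA1, a FOS relative lacking a strong activation domain) the values were 3.14 and 3.04 in siNF90, against 2.71 and 3.63 in siNTC cells. Again the siNF90 arrays sat inside the siNTC range in both genes. FOSL2 (FRA2), the FOS gene with the brightest probe set, had 4.51 and 4.16 in siNF90, against 4.25 and 4.53 in siNTC cells, with overlap. The differences were 0.034 for FOS (SE 0.22), 0.044 for FOSB (SE 0.27), -0.084 for FOSL1 (SE 0.35) and -0.055 for FOSL2 (SE 0.22). No fold is given for FOS, FOSB and FOSL1, since values so near the array medians may hold little signal of the gene.

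Single probe sets of the FOS genes went in both directions. Those of FOS ranged from -1.17 to 1.20, with 5 of 8 positive, and 1 was lower without overlap. In FOSL2 the range was from -1.43 to 1.11, where the lowest value came from a probe set at 5.10 and 2.56 on the siNF90 arrays, against 5.04 and 5.48 on the siNTC arrays. That probe set was low on the second siNF90 array alone. One FOSL2 probe set was higher without overlap, at 4.15 and 4.86 in siNF90, against 3.55 and 3.23 in siNTC cells. The 8 kept probe sets of FOSB ranged from -0.72 to 0.54, and 1 was lower without overlap. The 7 of FOSL1 ranged from -0.80 to 0.70, all with overlap. Of all kept probe sets of the array, 18% were higher and 20.3% lower without overlap. The counts in the FOS genes therefore say little about them. The probe sets of 1 gene share the same RNA samples and are not replicates.

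**Figure D2:**
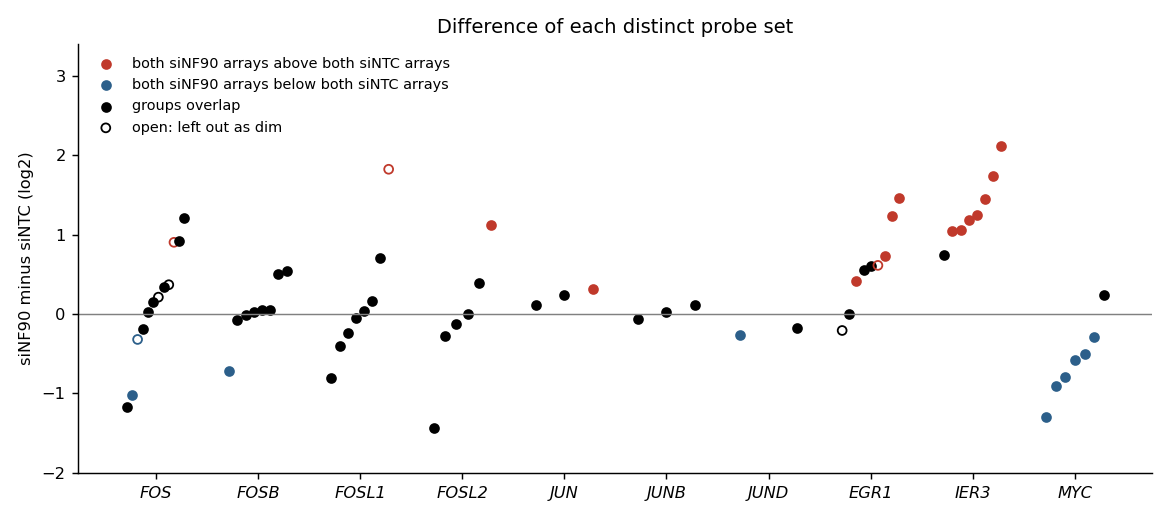
Difference between siNF90 and siNTC (log2, vertical axis) of each distinct probe set of the 10 genes, filled where kept and open where left out as dim. Points scatter around 0 in the FOS genes, while 8 of 8 in IER3 and 7 of 7 kept ones in EGR1 lie above 0 and 6 of 7 in MYC below it.

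EGR1 had values of 5.27 and 5.39 on the siNF90 arrays, against 4.21 and 5.01 on the siNTC arrays. Both siNF90 arrays lay above, close to each other, while the siNTC arrays were 0.80 apart. The difference was 0.72 (SE 0.31), with an interval from -0.10 to 1.54. The probe sets differed in size but not in sign: all 7 kept ones had positive differences, from 0.0056 to 1.47, and 4 of them were higher without overlap. Over all kept probe sets of the array, 18% were higher and 20.3% lower in siNF90 without overlap. The brightest EGR1 probe set had 8.35 and 8.05 in siNF90, against 6.59 and 6.88 in siNTC cells, so its groups stood well apart. The next in brightness had 7.34 and 7.18 in siNF90, against 6.58 and 7.11 in siNTC cells. There the second siNTC array nearly reached the siNF90 arrays. A further probe set had 5.48 and 5.51 in siNF90, against 3.65 and 4.86 in siNTC cells, and again the first siNTC array was the low one. The EGR1 difference was 0.32 without the first siNTC array and 1.12 without the second, so its size depended on which control array was used.

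The start regions of EGR1, JUN and JUND are shown because EGR1 and JUN were the transcription factor genes higher without overlap, and JUND is a close relative of JUN with a negative difference. The 300 bases from 250 before to 50 after the annotated start came from RefSeq's table for GRCh38.p14. They were searched in 7 of the 10 members (FOS, FOSB, FOSL2, JUN, JUNB, JUND and EGR1). MYC was left out of the search by choice, and IER3 and FOSL1 had no single entry in that table. The sources used here do not give the build behind the array annotation. Capitals mark every match, on either strand, to the CArG box, the AP-1 motif TGANTCA, the cAMP response element TGACGTCA, the E-box CACGTG, the EGR motif GCGNGGGCG, the GC box GGGCGG, the TATA box TATAAA and the NF-kB consensus. The EGR motif and the GC box can overlap. EGR1 lies at chr5:138465229-138465528, plus strand, JUN at chr1:58783998-58784297, minus strand, and JUND at chr19:18281573-18281872, minus strand, each printed 5′ to 3′ along its gene.
EGR1: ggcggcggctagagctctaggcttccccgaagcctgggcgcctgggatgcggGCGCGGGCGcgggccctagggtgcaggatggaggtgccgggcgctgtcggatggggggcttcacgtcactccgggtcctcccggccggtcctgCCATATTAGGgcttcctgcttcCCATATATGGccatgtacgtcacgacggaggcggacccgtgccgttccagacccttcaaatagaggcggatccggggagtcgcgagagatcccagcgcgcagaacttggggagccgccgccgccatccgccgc
JUN: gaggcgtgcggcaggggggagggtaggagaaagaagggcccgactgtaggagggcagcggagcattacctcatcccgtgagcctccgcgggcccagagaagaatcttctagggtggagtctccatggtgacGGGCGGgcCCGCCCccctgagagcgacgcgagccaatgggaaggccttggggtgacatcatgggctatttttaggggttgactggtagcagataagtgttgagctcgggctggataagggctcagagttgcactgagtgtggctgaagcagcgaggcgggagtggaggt
JUND: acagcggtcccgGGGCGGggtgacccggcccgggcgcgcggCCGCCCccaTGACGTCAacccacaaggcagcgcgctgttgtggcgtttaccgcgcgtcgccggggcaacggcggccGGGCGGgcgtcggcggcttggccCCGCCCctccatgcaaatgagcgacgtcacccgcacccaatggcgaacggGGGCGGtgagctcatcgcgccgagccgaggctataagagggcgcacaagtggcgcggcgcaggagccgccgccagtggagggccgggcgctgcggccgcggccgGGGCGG

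EGR1 held 2 CArG boxes, which begin at -105 and -83 from the start, and 1 EGR motif at -198. It was the 1 of the 7 members with a CArG box in this window, and 1.29% of 35116 promoters of the same length held one. JUN held GC boxes, found in 5 of the 7 members and in 45.0% of all promoters. JUND held several GC boxes and 1 cAMP response element at -200, a motif found in 1.85% of all promoters. FOSL2 held the AP-1 motif just after its start, as 7.71% of all promoters did within the window. A TATA box was present in FOS, FOSB and JUNB and in 11.5% of all promoters. The EGR motif was in 9.43% of all promoters. No match to the E-box or the NF-kB consensus was found in the 7 members, and 7.26% and 5.91% of all promoters held these letters. A match describes the letters and is not evidence of binding, and the lack of one concerns these patterns and this window only. JUN, for example, held tgacatca, which differs by 1 letter from the cAMP response element searched and was not marked.

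IER3 was the member with the largest difference. Its values were 7.94 and 7.78 on the siNF90 arrays, against 6.49 and 6.80 on the siNTC arrays. The lower siNF90 array stood 0.98 above the higher siNTC array, which is more than either gap between arrays of 1 group. The difference was 1.21 (SE 0.20), with an interval from 0.68 to 1.75. As the direction of IER3 was known when the group was chosen, this interval is a description and no test. The annotation gave IER3 36 probe sets, all of them kept, but these carried only 8 distinct sets of values: 6 of the sets occurred 5 or 6 times and the other 2 once. With each distinct set counted once the difference was 1.32. Of the 8 sets, 8 had positive differences, from 0.74 to 2.11, and 7 were higher without overlap (18% of all kept probe sets were).

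The brightest IER3 set had 11.2 and 11.1 in siNF90, against 10.1 and 10.1 in siNTC cells. Another had 9.94 and 9.75 in siNF90, against 8.31 and 8.50 in siNTC cells. In both, the groups stood much farther apart than the arrays within them. The largest difference, 2.11, came from a set seen once, with 6.60 and 6.45 in siNF90, against 5.31 and 3.52 in siNTC cells, so it rested largely on a low second siNTC array. The 1 set with overlap was also the dimmest, at 4.41 and 3.61 in siNF90, against 2.60 and 3.93 in siNTC cells. An antisense transcript, IER3-AS1, is annotated beside IER3 in RefSeq. The sources used here do not give the strand that the probe sets read, and signal from that transcript was not tested.

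MYC had values of 6.61 and 6.48 on the siNF90 arrays, against 6.99 and 7.27 on the siNTC arrays. The siNF90 arrays were the lower ones without overlap, and the gap between the nearest arrays of the groups was 0.38. The difference was -0.59 (SE 0.20), with an interval from -1.11 to -0.071. The direction of MYC was known when the group was chosen, so this interval is a description and no test. Of 7 probe sets, 6 were lower without overlap (20.3% of all kept probe sets were), with differences from -1.29 to -0.29. The brightest had 8.51 and 8.38 in siNF90, against 9.15 and 9.31 in siNTC cells. Another bright probe set had 8.05 and 7.93 in siNF90, against 8.44 and 8.70 in siNTC cells. The groups were apart in both, with the siNF90 arrays close together. In the second brightest the values were 8.49 and 8.80 in siNF90, against 8.90 and 8.96 in siNTC cells, a difference of -0.29. There the second siNF90 array lay nearer to the siNTC arrays than to the first siNF90 array. The 1 probe set with a positive difference was the dimmest, with a mean of 2.18, just above the filter.

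**Figure D3:**
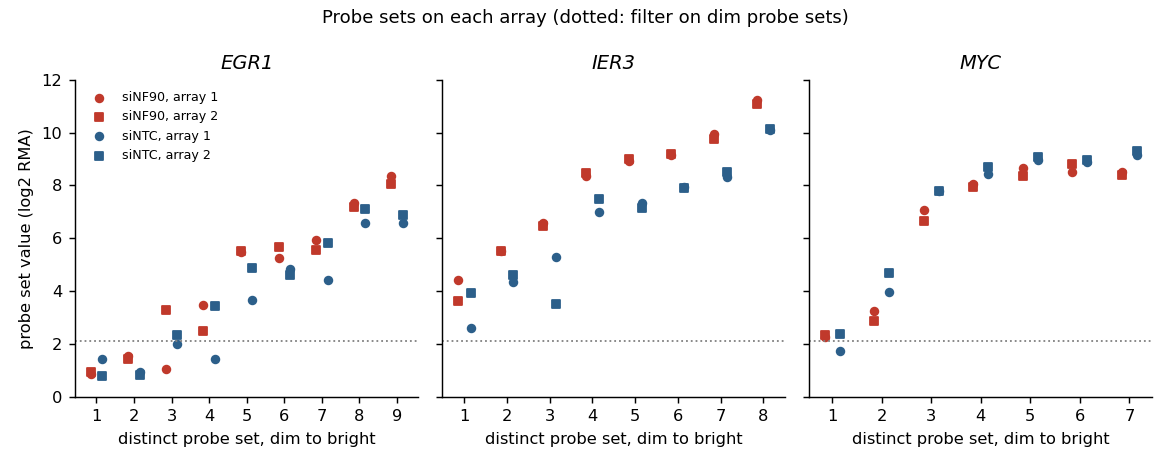
Values (log2 RMA, vertical axis) of each distinct probe set of EGR1, IER3 and MYC, ordered from dim to bright, with siNF90 arrays to the left of siNTC arrays and a dotted line at the filter of 2.13. The separation holds over most probe sets above 5 in IER3 and MYC, while in EGR1 the siNTC arrays are often far apart.

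The genes whose profile over the 4 arrays was nearest to that of IER3, by Euclidean distance after centring each gene on its mean, were DENND1B, an exchange factor for RAB proteins (distance 0.11), the actin-binding TAGLN (0.11) and the sialomucin PODXL (0.14). DENND1B had 5.08 and 4.84 in siNF90, against 3.51 and 3.80 in siNTC cells. Nearest to MYC were SHROOM1 (0.029), the peptidylarginine deiminase PADI4 (0.042) and CCNB1IP1 (0.043). SHROOM1 had 3.86 and 3.75 in siNF90, against 4.22 and 4.52 in siNTC cells. The distances rank 14440 genes over only 4 arrays and are a description of these arrays.

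Of the lists around these genes, the 27 other immediate early genes had 8 members higher and 5 lower without overlap (19.2% and 22% over all genes), and a median difference of 0.062, where the median over all genes was -0.018. The list's median was -0.065 without the first siNTC array and 0.18 without the second. CYR61, a matrix-associated growth regulator, was 3.07-fold higher. CTGF, its relative, had 8.59 and 8.53 in siNF90, against 7.50 and 7.88 in siNTC cells, a difference of 0.87 (SE 0.21). PPP1R15A, which directs the dephosphorylation of eIF2 alpha after stress, had 5.18 and 5.15 in siNF90, against 4.39 and 4.25 in siNTC cells, a difference of 0.84 (SE 0.17). In these genes the siNF90 arrays were clearly above. None of the 27 passed limma's adjusted p of 0.05, and with the trend and robust prior CYR61 and CTGF passed (adjusted p = 0.0085 and 0.043). The relatives of EGR1 and the NR4A receptors had no such pattern. EGR2 had a difference of -0.22 (SE 0.23), EGR3 of 0.026 (SE 0.26) and NR4A1 of -0.36 (SE 0.20), of which NR4A1 alone was without overlap. Several of these genes were dim: EGR2 (3.26 in siNF90, 3.48 in siNTC cells), EGR3 (2.81 and 2.78), NR4A2 (3.27 and 3.17) and NR4A3 (2.65 and 2.75). Such values may hold little signal of the gene.

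The corepressors and reported target genes of EGR1 had a median difference of 0.36 over 9 measured genes, with 4 higher and 1 lower without overlap, where 19.2% of all genes were higher and 22% lower. F3, tissue factor, the starter of coagulation, had 4.71 and 4.74 in siNF90, against 3.75 and 3.71 in siNTC cells, a difference of 0.99 (SE 0.17). PDGFB, a growth factor chain, had 4.43 and 4.82 in siNF90, against 3.52 and 3.76 in siNTC cells. NAB2, a corepressor that EGR1 itself induces, had 4.29 and 4.38 in siNF90, against 3.95 and 3.68 in siNTC cells, a difference of 0.52 (SE 0.19). For all 3 the siNF90 arrays were above both siNTC arrays, and 0 of the 9 passed limma, with either prior. PDGFA differed by -0.0064 (SE 0.22) and THBS1 by -0.059 (SE 0.20). With each array left out in turn, the median of the list ranged from 0.20, without the first siNF90 array, to 0.39.

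Around MYC, the MAX network had 4 members higher and 2 lower without overlap among 11 measured (19.2% and 22% over all genes), with a median difference of 0.14. MXD1, a repressor that competes with MYC for MAX, had 5.39 and 5.43 in siNF90, against 4.54 and 4.54 in siNTC cells, a difference of 0.87 (SE 0.17). MAX itself had a difference of 0.14 (SE 0.18). MLXIP, a glucose-sensing relative, was 0.46 higher (SE 0.20), whereas MLXIPL, the main glucose-responsive factor of liver, had -0.51 (SE 0.19). Of 20 measured MYC target genes, 2 were higher and 6 lower without overlap, against the same shares over all genes, with a median of -0.072. NCL, nucleolin, had 8.20 and 8.48 in siNF90, against 8.94 and 8.89 in siNTC cells, a difference of -0.58 (SE 0.19). ODC1, the first enzyme of polyamine synthesis, had -0.48 (SE 0.21) and WDR43, a ribosome assembly factor, -0.44 (SE 0.17), whereas FBL (fibrillarin) had 0.11 and CDK4 0.12. In limma 0 of either list passed, with either prior. The median of the target list was -0.0039 without the first siNTC array and 0.030 without the second siNF90 array, and -0.14 without the second siNTC array.

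The AP-1 side had differences in either direction. Over all genes 19.2% were higher and 22% lower without overlap. Of 15 measured zipper partners of FOS and JUN, 1 was higher and 1 lower without overlap, with a median of -0.095, which was -0.020 without the second siNF90 array. These were ATF2, a JUN partner, at 0.20 (SE 0.20), and BATF2, an AP-1 factor of immune cells, at -0.48 (SE 0.17). ATF3, a stress-induced partner, had -0.38 (SE 0.43). Of the 13 measured upstream factors and kinases 1 was higher and 5 were lower without overlap, with a median of 0.028, which was -0.075 without the first siNF90, -0.063 without the first siNTC and -0.027 without the second siNTC array. SRF had a difference of 0.31 (SE 0.19), the stress kinase MAPK14 (p38 alpha) had -0.46 (SE 0.18), and the ternary complex factors ELK3 and ELK4 had -0.38 (SE 0.17) and -0.35 (SE 0.27). Among 17 measured AP-1 target genes 4 were higher and 4 lower without overlap, with a median of 0.080, which was -0.065 without the first siNTC and 0.00071 without the second siNF90 array. SPP1, osteopontin, had -0.90 (SE 0.22), the heme oxygenase HMOX1 -0.65 (SE 0.24) and PLAUR, the urokinase receptor, 0.55 (SE 0.25). SPP1 was dim in siNF90 (mean 3.03) and PLAUR in siNTC cells (mean 3.20). Of 8 measured proteins that bind AU-rich elements, the sequences that mark many immediate early messages for rapid decay, 3 were higher and 1 lower without overlap. They had a median of 0.14, with TIAL1 at 0.38 (SE 0.18), ZFP36L2 at 0.22 (SE 0.19), and HNRNPD at 0.15 (SE 0.18). Without the second siNTC array that median was 0.049. No gene of these 4 lists passed limma with either prior.

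**Figure D4:**
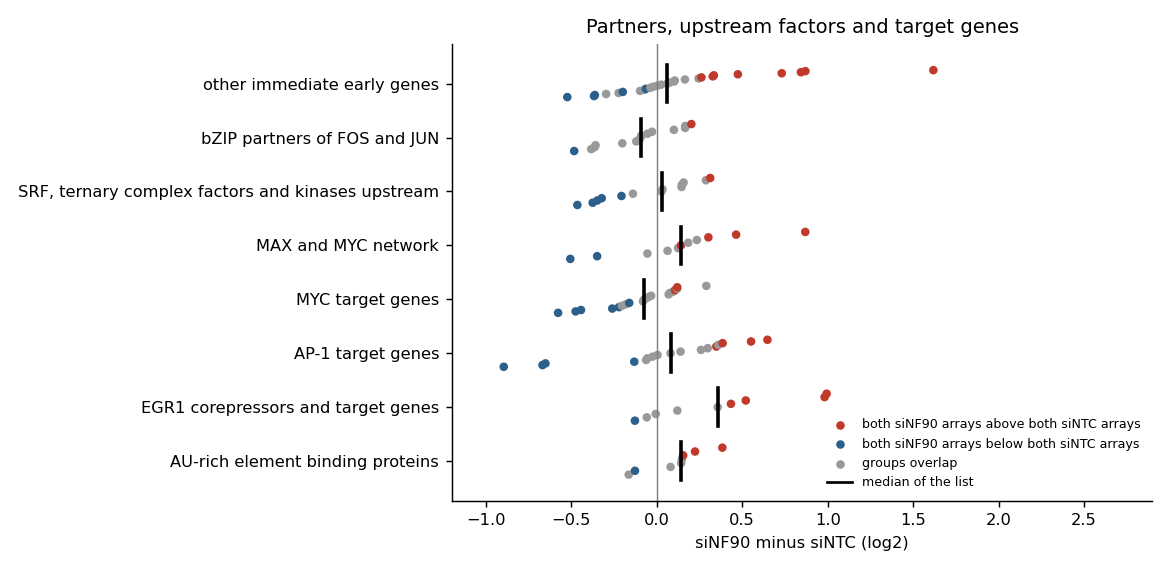
Difference between siNF90 and siNTC (log2, horizontal axis) of each measured gene in 8 lists, coloured by whether the groups overlap, with a bar at the median of each list. The median of the EGR1 list, 0.36, is the farthest from 0, and the other medians lie between -0.095 and 0.14.

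**Figure D5:**
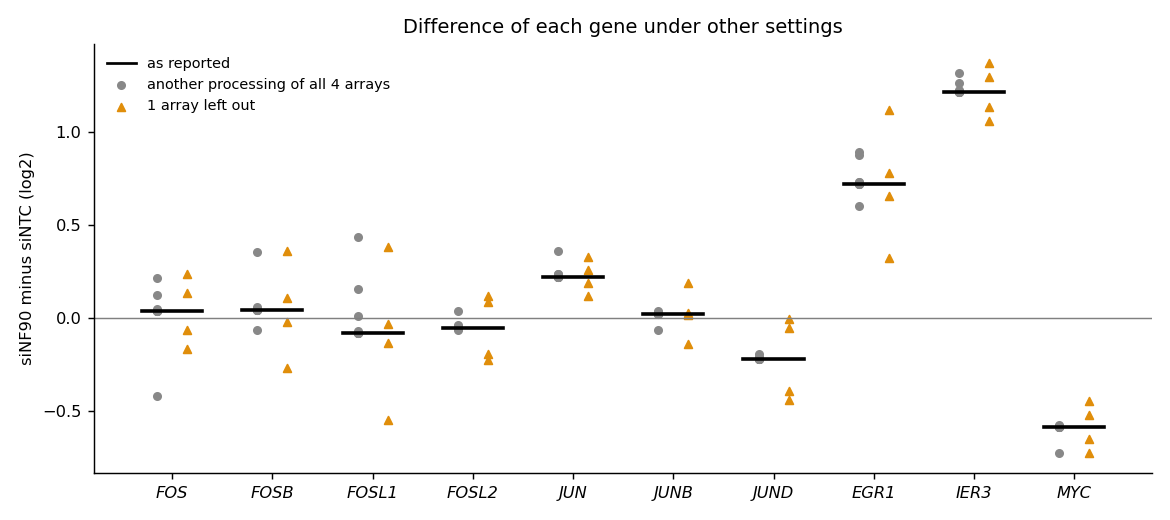
Difference between siNF90 and siNTC (log2, vertical axis) of the 10 genes as reported (bar), under other processing of all 4 arrays (circles) and with 1 array left out (triangles). IER3, EGR1 and JUN stay above 0 and MYC and JUND below 0 in the settings drawn, whereas FOS, FOSB, FOSL1, FOSL2 and JUNB cross 0. Without overlap between groups, as in IER3, EGR1, JUN and MYC, leaving out 1 array cannot turn the sign.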

How the data were processed

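Total RNA was labelled with Affymetrix kits and hybridised to 4 arrays, per the labels' protocols. The deposited values are log2 RMA values that the authors made with RMA-sketch in Affymetrix Expression Console, per the labels. The log base follows from the method and the range of values. The program's version and the build are not given in the sources consulted. Of 352859 probe sets, 257971 had 1 gene symbol, 17460 several and 77428 none, and those with 1 symbol were used. Probe sets with a mean below the 40th percentile were left out and the rest averaged per gene, which gave 19140 genes from 171120 probe sets. Genes were fitted with limma 3.58.1 in R 4.3.3 (lmFit and eBayes, two-sided, Benjamini-Hochberg adjustment over all genes, 0.05), after a check on simulated data. The differences planted in that check were larger than any reported here, so it does not show what the fit can detect at the sizes seen. The number of arrays, 2 per group, limits the precision.

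The members and lists were chosen with earlier results of these data known, and members have no test of their own. The lists (10 with 158 genes, 143 of them named in the annotation and 141 measured) are described by counts and medians. Named list genes are up to 3 per list with at least 3 kept probe sets, no overlap and the largest difference, and others were named after their values were seen. Profiles nearest to IER3 and MYC were sought among genes with at least 3 kept probe sets. Over genes, the deviations from the group mean of arrays with the same number correlated at -0.012, so the numbers were not taken to pair the arrays. The alternatives were other filters, row summaries, normalizations and priors, a replicate block and leaving out each array.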

Additional observations from a re-analysis of the deposited data

How the results depend on the processing

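Under 13 alternatives, IER3 (1.06 to 1.37), EGR1 (0.32 to 1.12), JUN (0.11 to 0.36), JUND (-0.44 to -0.0090) and MYC (-0.73 to -0.45) kept their direction. The other 5 genes turned sign, with the cause not tested. In IER3, EGR1, JUN and MYC the groups did not overlap, so leaving out 1 array cannot turn their sign. Their kept direction in those settings is therefore no added evidence. The trend and robust prior, the replicate block and the rule of at least 50% of rows kept left every member difference unchanged. The prior and the block cannot change a difference in this design. Counting identical rows once changed IER3 alone. FOS had -0.42 with the filter at the 60th percentile. FOSL1 had 0.43 there, and 0.15 without the filter. With the median of rows, FOSB had -0.069, FOSL1 0.0096, FOSL2 0.037 and JUNB -0.068. With 1 array left out, FOS ranged from -0.17 to 0.23, FOSB from -0.27 to 0.36, FOSL1 from -0.55 to 0.38, FOSL2 from -0.23 to 0.12 and JUNB from -0.14 to 0.19.

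The count of all genes called, 0 in limma, was 4 without the dim filter and 48 with the trend and robust prior. With the replicate block it was 0, as in the fit without it. The count of members without overlap ranged from 3 to 7 (higher) and from 1 to 7 (lower) when 1 array was left out. Of these, 7 higher came without the second siNTC array, and 7 lower without the first siNTC array. A group of 1 array overlaps less easily, and its array is assumed to vary like the others. The shares over all genes were not counted with 1 array left out. Leaving arrays out of the lists, chosen after seeing the data, took the medians of the immediate early list to between -0.065 and 0.18, of the upstream list to between -0.075 and 0.055 and of the AP-1 targets to between -0.065 and 0.14. Signal near the array medians limits FOS, FOSB and FOSL1.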
